A study of Xenopus laevis with 90 samples.

Results

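The Pou5f3 transcription factors of *Xenopus laevis* (African clawed frog) were followed across the onset of embryonic transcription. The members are the 6 genes *pou5f3.1*, *pou5f3.2* and *pou5f3.3*, each with an L and an S copy, taken by name from the 37504 genes of the first frog's table and the 36504 genes of the second's. All 6 had a row in both tables and passed the filter on low values (at least 1 TPM in at least 3 libraries). Pou5f3 proteins are POU domain factors of class V, the frog counterparts of mammalian Oct4 (Pou5f1), a factor that keeps cells pluripotent. In frog embryos they bind DNA with Sox factors, help the embryo switch on its own genome (zygotic genome activation, ZGA) and hold back differentiation of the germ layers. The *pou5f3.3* gene (Oct60) is known for its maternal transcript, which the egg supplies. The *pou5f3.1* gene (Oct91) is known as a zygotic gene, and *pou5f3.2* (Oct25) has both a maternal and a zygotic transcript. The genome of *X. laevis* arose from 2 ancestral species, and the copies on the long (L) and short (S) chromosomes descend from different parents.

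In assembly Xenopus_laevis_v10.1 the members form a tandem cluster on each of 2 homeologous chromosomes. On 8L, *pou5f3.3.L* (chr8L:2287556-2293268), *pou5f3.2.L* (chr8L:2295625-2299844) and *pou5f3.1.L* (chr8L:2304047-2308547) follow each other with no other annotated gene between them. The S copies keep this order on 8S, with *pou5f3.3.S* at chr8S:27577658-27582244, *pou5f3.2.S* at chr8S:27584027-27587612 and *pou5f3.1.S* at chr8S:27602654-27608214. The gap between *pou5f3.2* and *pou5f3.1* was 4202 bases on 8L and 15041 bases on 8S. The gene *npdc1.1* followed the cluster on both chromosomes. All 6 are annotated as protein-coding.

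RNA was sequenced from pools of 3 sibling embryos at 5.5, 6.5 and 7.5 h post fertilization (hpf), and each of 2 frogs gave 3 pools to every group (90 libraries in 15 groups). Treated embryos received mRNA for the histone H3 lysine 4 demethylase Kdm5b-wt (11 ng), for a histone H3.3 with methionine in place of lysine 4 (H3.3-K4M, 345 pg) and for TIR1 (5 ng), an auxin receptor from plants. In control embryos the mRNAs coded for catalytically inactive Kdm5b-ci (4 ng), H3.3-wt (345 pg) and TIR1 (5 ng), so the Kdm5b dose differed between these groups; per the methods the amounts were set for equal protein levels. Wild type embryos were not injected. With auxin (IAA, 500 µM, given before ZGA) TIR1 marks the injected proteins for degradation, so that trimethylation of H3 lysine 4 (H3K4me3) is depleted in a window before ZGA (treated and control +IAA). Without auxin the depletion is persistent (treated and control -IAA). The wild type groups had no auxin. Each pool holds whole embryos of siblings, and the pools of a frog are technical replicates. P-values therefore measure the spread between sibling pools, and fewer cells with a transcript cannot be told apart from less transcript per cell.

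Values are TPM, transcript levels corrected for length and scaled to a fixed total per library, so levels can be compared between genes within a table. The tables of the frogs were made separately. TPM keep no read depth, and a library with more ribosomal RNA has lower TPM for all other genes. Per the methods the samples were depleted of ribosomal RNA before sequencing. What remained of it took 4.04% to 37.4% of the TPM in frog 1 and 1.77% to 15.6% in frog 2. The highest shares were in 1 wild type pool at 5.5 hpf and 1 control -IAA pool at 6.5 hpf of frog 1 (37.4% and 29.9%), and in 1 wild type pool at 6.5 hpf of frog 2 (15.6%). In frog 1 the wild type pools held 20.6% to 37.4% at 5.5 hpf, 6.69% to 8.65% at 6.5 hpf and 5.78% to 7.83% at 7.5 hpf. In frog 2 these ranges were 2.49% to 4.07%, 1.77% to 15.6% and 4.06% to 8.47%. Unscaled wild type changes from 5.5 hpf in frog 1 thus start from pools rich in ribosomal RNA. Between 5.5 and 7.5 hpf the median gene of wild type embryos shifted by 0.39 in frog 1 and -0.69 in frog 2 on the log2(TPM + 1) scale, in opposite directions. Where a shift of this size bears on a member, values after median-ratio rescaling are given too (each library scaled so that its typical gene with a mean of at least 10 TPM matches the other libraries of the frog). Changes are log2 differences of log2(TPM + 1) from limma, which understate the change of low genes. They are given with the standard error (SE) and called at a Benjamini-Hochberg adjusted p under 0.05 over all genes tested. There were 20891 of these genes in frog 1 and 20277 in frog 2. Where the pools of groups are said not to overlap, the share of all genes that separated this way was not counted. L and S copies are similar in sequence, and their reads were divided between them by the authors' quantification.

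In wild type embryos of the earliest stage sampled the family was almost wholly *pou5f3.3*. At 5.5 hpf *pou5f3.3.L* was at 182, 149 and 145 TPM in the pools of frog 1 and at 256, 269 and 258 TPM in those of frog 2. The S copy was at 134, 112 and 110.3 TPM and at 188, 201 and 188 TPM. Together both copies held 93.9% ± 0.701 (SD, n = 3) of the family's TPM in frog 1 and 96.6% ± 0.236 in frog 2. Every pool of either copy was above every pool of the other 4 genes at this stage.

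The level of *pou5f3.3* moved in the same direction as the median gene. From 5.5 to 7.5 hpf *pou5f3.3.L* changed by 0.42 ± 0.11 (SE, adjusted p = 0.0019) in frog 1 and by -0.72 ± 0.08 (adjusted p = 8.1e-10) in frog 2, and *pou5f3.3.S* by 0.36 ± 0.12 and -0.83 ± 0.08. These values lie next to the medians of all genes given above. After rescaling, the change of *pou5f3.3.L* was -0.02 in frog 1 (adjusted p = 0.825) and 0.09 in frog 2 (adjusted p = 0.173), with the opposite sign to the unscaled values and not called. For *pou5f3.3.S* it was -0.07 (adjusted p = 0.397) and -0.03 (adjusted p = 0.648). In frog 2 this copy was still called after rescaling in each single hour, higher at 6.5 over 5.5 hpf (0.13, adjusted p = 0.0473) and lower at 7.5 over 6.5 hpf (-0.16, adjusted p = 0.00977). On the rescaled scale *pou5f3.3.L* ranged from 189 to 250.1 over all 45 libraries of frog 1 and from 189 to 241 over the 45 of frog 2, injected and wild type alike. The same ranges for *pou5f3.3.S* were 138 to 198 and 134 to 173. The SD over the libraries of a frog was at most 6.6% of the mean for either copy. Rescaling removes any rise or fall shared by the typical gene, so this spread cannot show whether the absolute level was steady.

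The zygotic genes rose over the same hours. *pou5f3.2.L* had 15.2, 11.7 and 15.1 TPM at 5.5 hpf in frog 1, 78.3, 75.1 and 86.4 TPM at 6.5 hpf and 332, 348 and 270.5 TPM by 7.5 hpf. In frog 2 it had 11.3, 11.3 and 12.4, then 62.4, 46.7 and 70.9 and then 202, 198 and 200.2 TPM. No pool of one stage overlapped with another stage. The gene was thus above 10 TPM at the earliest stage sampled, and was 22.7-fold higher at 7.5 than at 5.5 hpf in mean TPM in frog 1, and 17.2-fold higher in frog 2. After rescaling these folds were 16.8-fold in frog 1 and 30.1-fold in frog 2, so that frog 2 had the higher fold. *pou5f3.2.S* began lower, at 3.81, 2.56 and 2.97 TPM in frog 1 and 4.04, 3.44 and 3.61 TPM in frog 2. It reached 218, 217 and 189 TPM and 129, 128 and 119 TPM at 7.5 hpf, which was 66.8-fold and 33.9-fold higher, and 49.8-fold and 59.4-fold higher after rescaling. The log2 changes from 5.5 to 7.5 hpf were 4.41 ± 0.12 and 3.99 ± 0.13 for the L copy and 5.68 ± 0.15 and 4.75 ± 0.13 for the S copy (SE, frogs 1 and 2). After rescaling they were 3.99 and 4.77 for L and 5.33 and 5.48 for S.

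*pou5f3.1* was still low at 6.5 hpf and was higher at 7.5 hpf. *pou5f3.1.L* was under 0.5 TPM in all 6 wild type pools at 5.5 hpf, at 1.95, 1.94 and 2.66 TPM (frog 1) and 1.47, 1.5 and 2.28 TPM (frog 2) at 6.5 hpf, and at 38.5, 43.2 and 33.2 TPM and 19.4, 22.8 and 24.2 TPM at 7.5 hpf. Its mean rose 17.6-fold in frog 1 and 12.6-fold in frog 2 in the last hour, against 3.96-fold and 3.34-fold for *pou5f3.2.L*. It had already risen from 5.5 to 6.5 hpf, from 0.208 to 2.18 TPM in frog 1 and from 0.303 to 1.75 TPM in frog 2. The mean of *pou5f3.1.S* rose less in the last hour, from 2.42 to 11.2 TPM in frog 1 and from 1.29 to 7.22 TPM in frog 2. After rescaling the folds were 21.5-fold and 17.0-fold for *pou5f3.1.L* and 4.83-fold and 4.49-fold for *pou5f3.2.L*. *pou5f3.1.S* had 2.05, 1.6 and 3.61 TPM and 1.47, 1.03 and 1.37 TPM at 6.5 hpf, and 12.6, 12.0 and 9.04 TPM and 7.66, 6.38 and 7.61 TPM at 7.5 hpf. In the fit from 5.5 to 7.5 hpf the L copy changed by 5.02 ± 0.20 and 4.15 ± 0.21 and the S copy by 2.86 ± 0.21 and 2.62 ± 0.18. The highest adjusted p of the 4 zygotic copies was 1.6e-13.

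Of the 6 members, 6 were called higher at 6.5 than at 5.5 hpf in frog 1, where 75.8% of all genes were, and 4 in frog 2, where 5.33% were. From 5.5 to 7.5 hpf the counts were 6 in frog 1 (56.2% of all genes) and 4 in frog 2 (8.37%). The 4 called in frog 2 were the copies of *pou5f3.1* and *pou5f3.2*. The count of 6 in frog 1 includes *pou5f3.3* and lies on a background in which most genes were called higher. After median-ratio rescaling 3 members were called higher at 6.5 hpf and 4 at 7.5 hpf in frog 1. In frog 2 they were 5 at 6.5 hpf, where *pou5f3.3.S* was the fifth, and 4 at 7.5 hpf. The shares of all genes called on that scale are not given here. From 6.5 to 7.5 hpf *pou5f3.3.S* was called lower in frog 1 (-0.36 ± 0.12, with 26.2% of all genes called lower). Both copies were called lower in frog 2 (-0.42 ± 0.08 for L and -0.57 ± 0.08 for S, with 66.8% of all genes called lower). Of these, *pou5f3.3.S* of frog 2 was still called after rescaling.

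**Figure D1:**
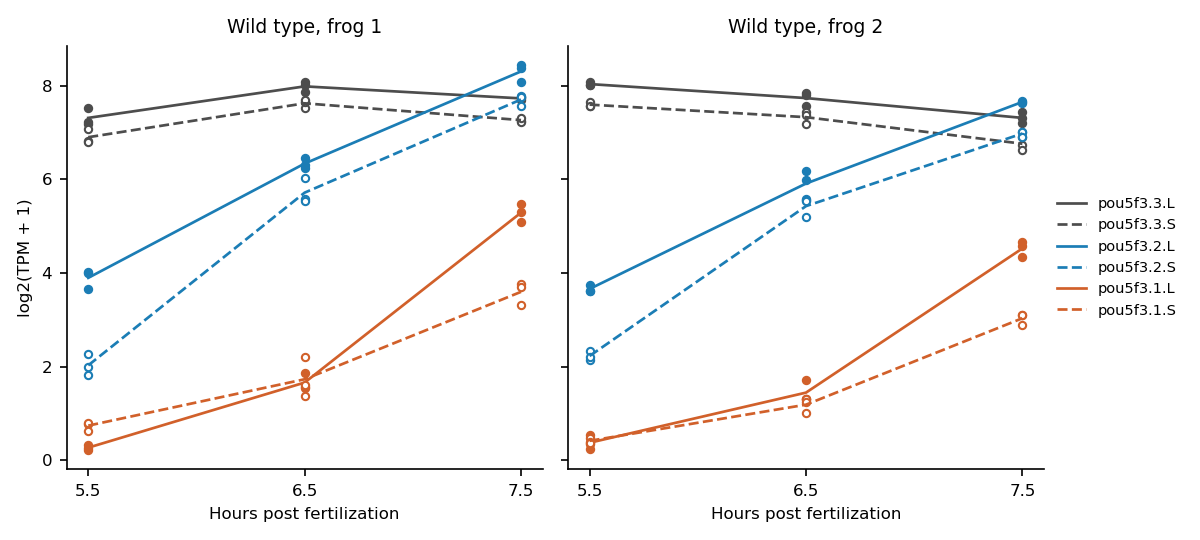
Level of each family member in wild type embryos, as log2(TPM + 1) against hours post fertilization, for frog 1 (left) and frog 2 (right); points are single pools (filled L, open S) and lines join the means of 3 pools. The *pou5f3.3* lines stay near the top at all stages, *pou5f3.2* reaches them by 7.5 hpf, and *pou5f3.1* climbs mostly after 6.5 hpf.

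By 7.5 hpf *pou5f3.2* had overtaken the maternal gene in wild type embryos. It held 5.8% ± 0.736, 22.5% ± 1.65 and 55.8% ± 2.91 of the family's TPM at 5.5, 6.5 and 7.5 hpf in frog 1 (SD, n = 3). In frog 2 these shares were 3.27% ± 0.217, 21.3% ± 1.6 and 52.5% ± 1.33. *pou5f3.1* reached 5.26% ± 0.416 and 4.74% ± 0.59 at 7.5 hpf, and *pou5f3.3* still made up 38.9% ± 3.31 and 42.8% ± 1.91. The summed level of the 6 copies averaged 296 ± 34.9 TPM at 5.5 hpf and 938 ± 55.2 TPM at 7.5 hpf in frog 1, and 469.6 ± 13.9 and 621 ± 26.7 TPM in frog 2. After rescaling the sums were 384 ± 12.2 and 906 ± 83.5 in frog 1, and 369 ± 7.8 and 856 ± 21.7 in frog 2, so the frogs lay closer together on that scale. In order of mean TPM at 7.5 hpf the copies ran *pou5f3.2.L*, *pou5f3.3.L*, *pou5f3.2.S*, *pou5f3.3.S*, *pou5f3.1.L* and *pou5f3.1.S* in both frogs. Only *pou5f3.3.L* and *pou5f3.2.S* of frog 1 overlapped among neighbours in this order. At 5.5 hpf the order was *pou5f3.3.L*, *pou5f3.3.S*, *pou5f3.2.L*, *pou5f3.2.S*, *pou5f3.1.S* and *pou5f3.1.L* in both frogs, with overlap only between the *pou5f3.1* copies of frog 2.

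The L and S copies did not keep a fixed ratio. Of *pou5f3.2* TPM the L copy of frog 1 held 81.8% ± 1.83 at 5.5 hpf, then 60.7% ± 2.98 and 60.3% ± 1.35 (wild type, SD, n = 3), with 75.9% ± 2.00, 58.4% ± 2.35 and 61.6% ± 0.999 in frog 2. The L copy was thus more dominant at 5.5 hpf than at the later stages. The log2 ratio of L to S, with 1 TPM added to each, changed by -1.25 ± 0.12 from 5.5 to 6.5 hpf in frog 1 (adjusted p = 3.71e-09 over 5816 homeolog pairs) and by -0.95 ± 0.11 in frog 2 (adjusted p = 2.46e-07 over 5715 pairs). For *pou5f3.1* the share moved the other way. The L copy held 23.7% ± 4.25, 48.6% ± 6.14 and 77.4% ± 1.78 at 5.5, 6.5 and 7.5 hpf in frog 1. In frog 2 it held 46.1% ± 14.9, 57.3% ± 6.45 and 75.3% ± 3.3. The change of the log2 ratio from 5.5 to 6.5 hpf was 0.40 ± 0.22 and 0.30 ± 0.16 and was not called in either frog. From 5.5 to 7.5 hpf its log2 ratio changed by 2.16 ± 0.22 (adjusted p = 1.44e-09) and 1.53 ± 0.16 (adjusted p = 7.34e-10). At 5.5 hpf this gene was near 0, so its share there rests on very low values, and the added 1 TPM pulls its log2 ratio toward 0. From 6.5 to 7.5 hpf, also starting from low levels, the ratio changed by 1.76 ± 0.22 (limma, adjusted p = 2.28e-07) in frog 1. In frog 2 it changed by 1.23 ± 0.16 (adjusted p = 3.08e-07). In this interval 381 of 5816 pairs were called lower and 431 higher in frog 1, and 650 and 662 of 5715 in frog 2.

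The *pou5f3.3* share of L stayed within narrow limits. It was 57.1% ± 0.384, 56.3% ± 0.342 and 58.0% ± 0.41 in frog 1 and 57.6% ± 0.385, 57.1% ± 0.311 and 59.5% ± 0.389 in frog 2. The change of its log2 ratio from 5.5 to 7.5 hpf was 0.05 ± 0.05 in frog 1 (adjusted p = 0.468) and 0.11 ± 0.04 in frog 2 (adjusted p = 0.0243, called). Ratio changes were common among all pairs. From 5.5 to 6.5 hpf 14.9% of pairs were called in frog 1 and 17.4% in frog 2, against 1 of the 3 family pairs in each. From 5.5 to 7.5 hpf these shares were 27% and 46.8%, against 2 and 3 of the family pairs. At 7.5 hpf L was called above S for all 3 pairs in both frogs, as it was for 47.5% and 47.9% of all pairs.

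**Figure D2:**
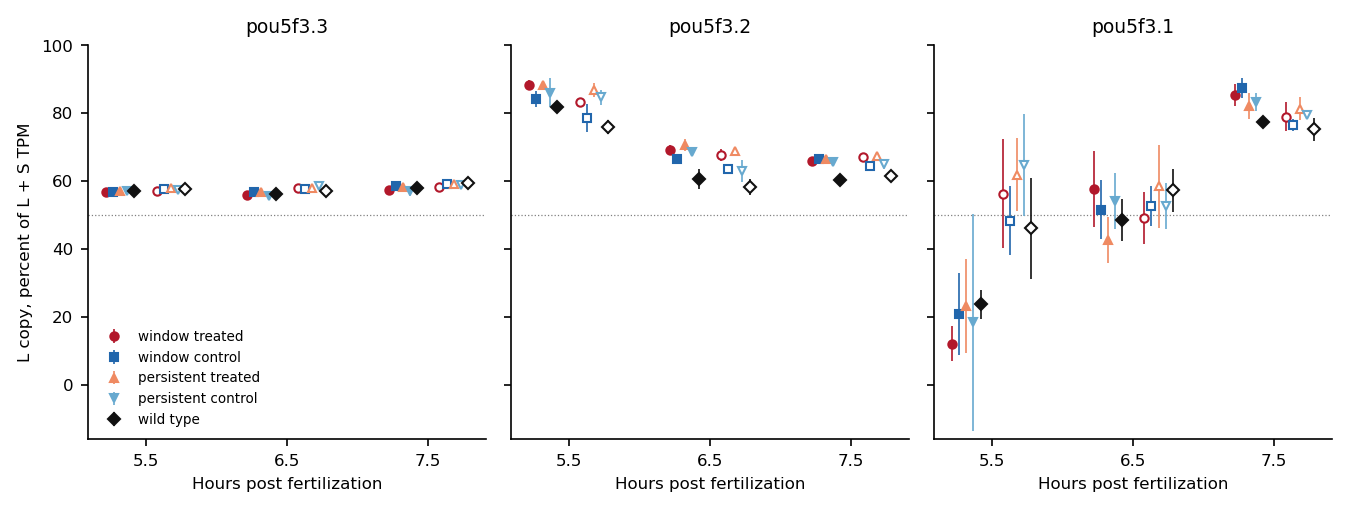
Share of the L copy in the L + S TPM of each gene (percent, mean ± SD of 3 pools) against hours post fertilization, with filled symbols for frog 1 and open symbols for frog 2, one symbol per group; the dotted line marks equal levels. In every group the mean for *pou5f3.3* lies between 55.8% and 59.5%, that for *pou5f3.2* is lower at 6.5 and 7.5 than at 5.5 hpf, and that for *pou5f3.1* is higher at 7.5 than at 6.5 hpf.

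The window comparison asks whether depletion of H3K4me3 before ZGA, followed by release, alters these genes. At 7.5 hpf *pou5f3.1.L* had 11.7, 25.3 and 13.2 TPM in treated +IAA pools of frog 1, against 29.9, 33.4 and 26.5 TPM in control +IAA pools. In frog 2 it had 5.69, 5.01 and 6.25 TPM in treated and 13.8, 19.0 and 16.1 TPM in control pools. Every treated pool was below every control pool in both frogs. The mean treated level was 55.9% of the control mean in frog 1 and 34.7% in frog 2, with log2 changes of -0.88 ± 0.20 (SE, adjusted p = 0.0269) and -1.37 ± 0.21 (adjusted p = 8.28e-05). *pou5f3.1.S* stood at 2.02, 3.26 and 2.83 TPM in treated and 3.79, 3.92 and 5.06 TPM in control pools of frog 1, with a change of -0.51 ± 0.21 that was not called (adjusted p = 0.635). In frog 2 it fell, at 1.17, 1.27 and 2.14 TPM in treated and 4.47, 6.07 and 4.4 TPM in control pools (-1.25 ± 0.18, adjusted p = 4.39e-05).

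For *pou5f3.2.L* the treated mean at 7.5 hpf was 74.5% of the control mean in frog 1 and 69.1% in frog 2, and for *pou5f3.2.S* it was 76.5% and 61.7%. *pou5f3.2.L* had 229.7, 257 and 234 TPM in treated +IAA pools of frog 1, against 350.1, 323 and 294 TPM in control +IAA pools. In frog 2 the values were 147, 140.3 and 153 TPM in treated and 194, 220.4 and 224 TPM in control pools. Treated and control pools did not overlap in either frog, and how many of all genes separated this way was not counted. The changes were -0.42 ± 0.12 in frog 1, not called (adjusted p = 0.166), and -0.53 ± 0.13 in frog 2 (adjusted p = 0.0167). *pou5f3.2.S* had 112, 137 and 122 TPM in treated and 169, 161 and 156 TPM in control pools of frog 1, and 72.3, 68.0 and 77.2 TPM and 103, 131 and 119 TPM in frog 2. Its changes were -0.39 ± 0.15 (adjusted p = 0.542) and -0.69 ± 0.13 (adjusted p = 0.00101).

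Maternal *pou5f3.3* was not called in the window comparison at any stage. At 7.5 hpf *pou5f3.3.L* had 237, 205 and 236 TPM in treated and 198, 207 and 197 TPM in control pools of frog 1, and 172, 173 and 170.2 TPM and 179.6, 158 and 175 TPM in frog 2. The intervals of its change were -0.06 to 0.39 and -0.15 to 0.17 (95%). For *pou5f3.3.S* they were -0.01 to 0.48 and -0.09 to 0.22. At 7.5 hpf 1 of the 6 members was called lower in frog 1, on a background of 0.579% of all genes, and 4 of 6 in frog 2, on a background of 1.87%. Without the pools numbered 2 of frog 2, none of the 4 was called (0 of 6), with changes of -1.19, -1.06, -0.47 and -0.56 in the order *pou5f3.1.L*, *pou5f3.1.S*, *pou5f3.2.L* and *pou5f3.2.S*. The call in frog 1 was lost without its pools numbered 1 or without those numbered 3 (0 of 6 each). The shares of all genes called with pools left out are not given here. With only the 6 libraries of each contrast in the fit 0 were called in frog 1 and 1 in frog 2. The share of all genes in that fit is not given here.

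**Figure D3:**
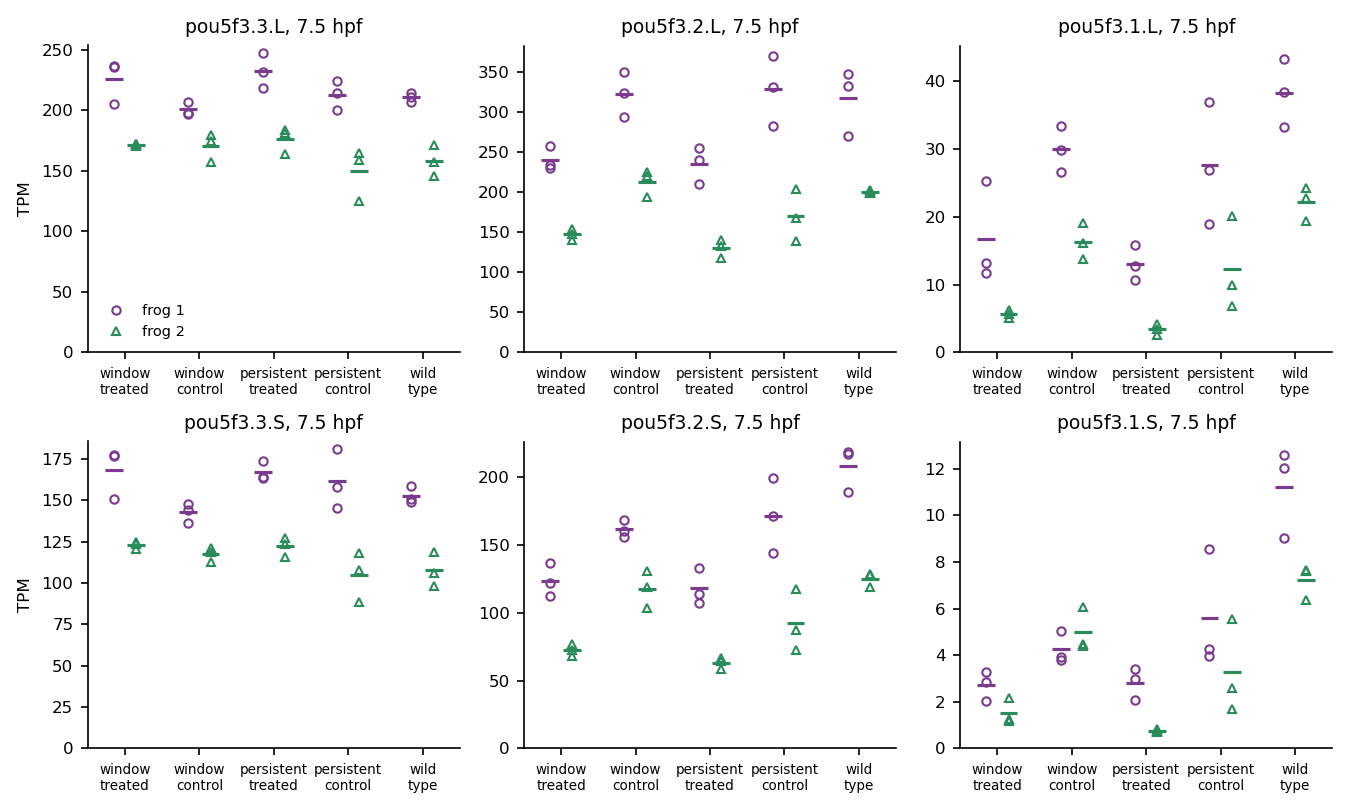
Level of each member at 7.5 hpf (TPM, linear axis from 0), one point per pool and a bar at the mean of 3, for frog 1 (circles) and frog 2 (triangles), in window treated and control (+IAA), persistent treated and control (-IAA) and wild type embryos. Window treated points of the *pou5f3.1* and *pou5f3.2* copies lie below the control +IAA points of the same frog. Those of *pou5f3.3* overlap with the control +IAA points in frog 2 and mostly lie above them in frog 1. Persistent treated points of the *pou5f3.1* and *pou5f3.2* copies lie below the control -IAA points, except for *pou5f3.2.L* in frog 2, where they overlap.

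At 6.5 hpf the calls were in *pou5f3.2* of frog 2. *pou5f3.2.S* had 23.6, 22.0 and 17.0 TPM in treated +IAA pools of frog 2 and 38.3, 39.3 and 43.0 TPM in control +IAA pools (-0.93 ± 0.13, adjusted p = 2.56e-05). The L copy had 46.2, 45.8 and 39.0 TPM in treated and 70.0, 67.4 and 74.1 TPM in control pools (-0.68 ± 0.13, adjusted p = 0.00235). In frog 1 neither was called. Treated pools lay below control pools for both copies, and how many of all genes separated this way was not counted. There the L copy had 87.4, 74.6 and 83.5 TPM in treated and 118, 112 and 107 TPM in control pools (-0.45 ± 0.12, adjusted p = 0.135). The S copy had 41.7, 32.1 and 35.7 TPM in treated and 55.7, 60.7 and 52.7 TPM in control pools (-0.62 ± 0.15, adjusted p = 0.0694). After median-ratio rescaling, for which the share of all genes called is not given here, both were called in frog 1, at -0.54 (adjusted p = 0.0356) and -0.70 (adjusted p = 0.014). The members called lower were 0 of 6 in frog 1 (0.101% of all genes) and 2 of 6 in frog 2 (0.952%). Unadjusted limma p was under 0.05 for 2 and 4 members, beside 1882 of 20891 and 3192 of 20277 genes in either direction. Without the pools of any 1 number of frog 2, 1 of 6 was called there (share of all genes in these smaller fits not given here).

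At 5.5 hpf *pou5f3.2.S* was called lower in frog 1, with 2.22, 2.46 and 2.21 TPM in treated and 4.64, 3.98 and 4.22 TPM in control pools (-0.68 ± 0.15, adjusted p = 0.0256). In that comparison 4 of the 6 members, *pou5f3.3* included, had all treated pools below all control pools, and the median of all genes was -0.14. How many of all genes separated this way is not given here. Unadjusted limma p was under 0.05 for 4 members that were lower, beside 3016 of 20891 genes in either direction. Ribosomal RNA took 13.9% to 22.9% of TPM in these treated pools and 11.4% to 11.9% in these control pools. After median-ratio rescaling the change was -0.55 and not called (adjusted p = 0.0668). The call was also lost without the pools of any 1 number of frog 1 (0 of 6, share of all genes in these smaller fits not given here). Thus 1 of 6 members was called lower at 5.5 hpf in frog 1 (0.383% of all genes) and 0 of 6 in frog 2 (0%). In frog 2 1 member had an unadjusted limma p under 0.05, beside 932 of 20277 genes in either direction.

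Under persistent depletion *pou5f3.1.L* was called lower in both frogs. At 7.5 hpf *pou5f3.1.L* had 12.7, 15.8 and 10.6 TPM in treated -IAA pools of frog 1, against 18.9, 26.9 and 36.9 TPM in control -IAA pools. In frog 2 it had 2.61, 4.17 and 3.42 TPM in treated and 6.88, 9.89 and 20.1 TPM in control pools. All treated pools were below all control pools, although the control pools of frog 2 spread widely. The control pool with the highest *pou5f3.1.L* there, 20.1 TPM, had the lowest *pou5f3.3.L* of its group, 125 TPM. The changes were -0.99 ± 0.20 (adjusted p = 0.0096) and -1.49 ± 0.21 (adjusted p = 3.95e-05). *pou5f3.1.S* fell in frog 2, at 0.721, 0.736 and 0.824 TPM in treated and 1.67, 2.59 and 5.54 TPM in control pools (-1.17 ± 0.18, adjusted p = 0.000126). In frog 1 its change was -0.74 ± 0.21 (adjusted p = 0.106).

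For *pou5f3.2.L* at 7.5 hpf the treated -IAA pools had 241, 254 and 211 TPM and the control -IAA pools 283, 331 and 370.2 TPM in frog 1. In frog 2 they had 118, 133 and 140.2 TPM and 138, 168 and 204 TPM. Neither change was called (-0.47 ± 0.12, adjusted p = 0.0599, and -0.37 ± 0.13, adjusted p = 0.0533), and the groups of frog 2 overlapped. *pou5f3.2.S* fell in frog 2, with 58.3, 66.3 and 64.6 TPM in treated and 72.6, 87.6 and 117 TPM in control pools (-0.52 ± 0.13, adjusted p = 0.00901). In frog 1 its change was -0.53 ± 0.15 (adjusted p = 0.103). The members called lower at 7.5 hpf were 1 of 6 in frog 1 (0.641% of all genes) and 3 of 6 in frog 2 (2.19%). After median-ratio rescaling the changes of *pou5f3.1.L*, *pou5f3.1.S*, *pou5f3.2.L* and *pou5f3.2.S* were -1.08, -0.81, -0.57 and -0.62 in frog 1. In frog 2 they were -1.71, -1.42, -0.56 and -0.71. All were called by limma (highest adjusted p = 0.0399 in frog 1 and 0.00463 in frog 2). The share of all genes called on that scale is not given here. With only the 6 libraries of each contrast in the fit 0 of 6 members were called in either frog. The share of all genes in that fit is not given here. The call in frog 1 was lost without its pools numbered 2 or without those numbered 3 (0 of 6 each, share of all genes not given here).

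Of the 3 genes, *pou5f3.3* alone was called higher in treated embryos, in the persistent scheme of frog 2. At 7.5 hpf in frog 2 *pou5f3.3.L* had 164, 183 and 182 TPM in treated -IAA and 159, 165 and 125 TPM in control -IAA pools (0.24 ± 0.08, adjusted p = 0.0393). *pou5f3.3.S* changed by 0.23 ± 0.08 (adjusted p = 0.0443). The pools of both copies overlapped between the groups, the median of all genes was 0.16, and 13% of all genes were called higher, against 2 of 6 members. After rescaling these changes were 0.06 and 0.04 and were not called. In frog 1 no member was called higher by limma or had an unadjusted p under 0.05 in this direction (0 of 6, with 0.0527% of all genes).

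At 6.5 hpf persistent depletion gave 21.2, 18.1 and 22.9 TPM of *pou5f3.2.S* in treated and 43.4, 40.8 and 39.5 TPM in control pools of frog 2 (-0.96 ± 0.13, adjusted p = 4.99e-06). For *pou5f3.2.L* there were 44.8, 40.9 and 51.3 TPM in treated and 76.1, 79.0 and 58.1 TPM in control pools (-0.62 ± 0.13, adjusted p = 0.00522). In frog 1 the changes were -0.45 ± 0.15 and -0.31 ± 0.12 and were not called, and the lowest of its control pools was the one with 29.9% ribosomal RNA. The count called lower was 0 of 6 in frog 1 (0.0909% of all genes) and 2 of 6 in frog 2 (1.16%). Unadjusted limma p-values under 0.05 were found for 2 and 4 members, beside 871 of 20891 and 4704 of 20277 genes in either direction. Without the pools numbered 3 of frog 1, which include that control pool, the count was still 0 of 6. In frog 2 it was 1 of 6 without the pools numbered 1 or those numbered 2, and 4 of 6 without those numbered 3. The shares of all genes called with pools left out are not given here. At 5.5 hpf no member was called in either frog (0 of 6, with 0.00479% and 0.00986% of all genes called lower). There unadjusted limma p-values under 0.05 were found for 0 and 1 members, beside 1553 of 20891 and 681 of 20277 genes in either direction.

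**Figure D4:**
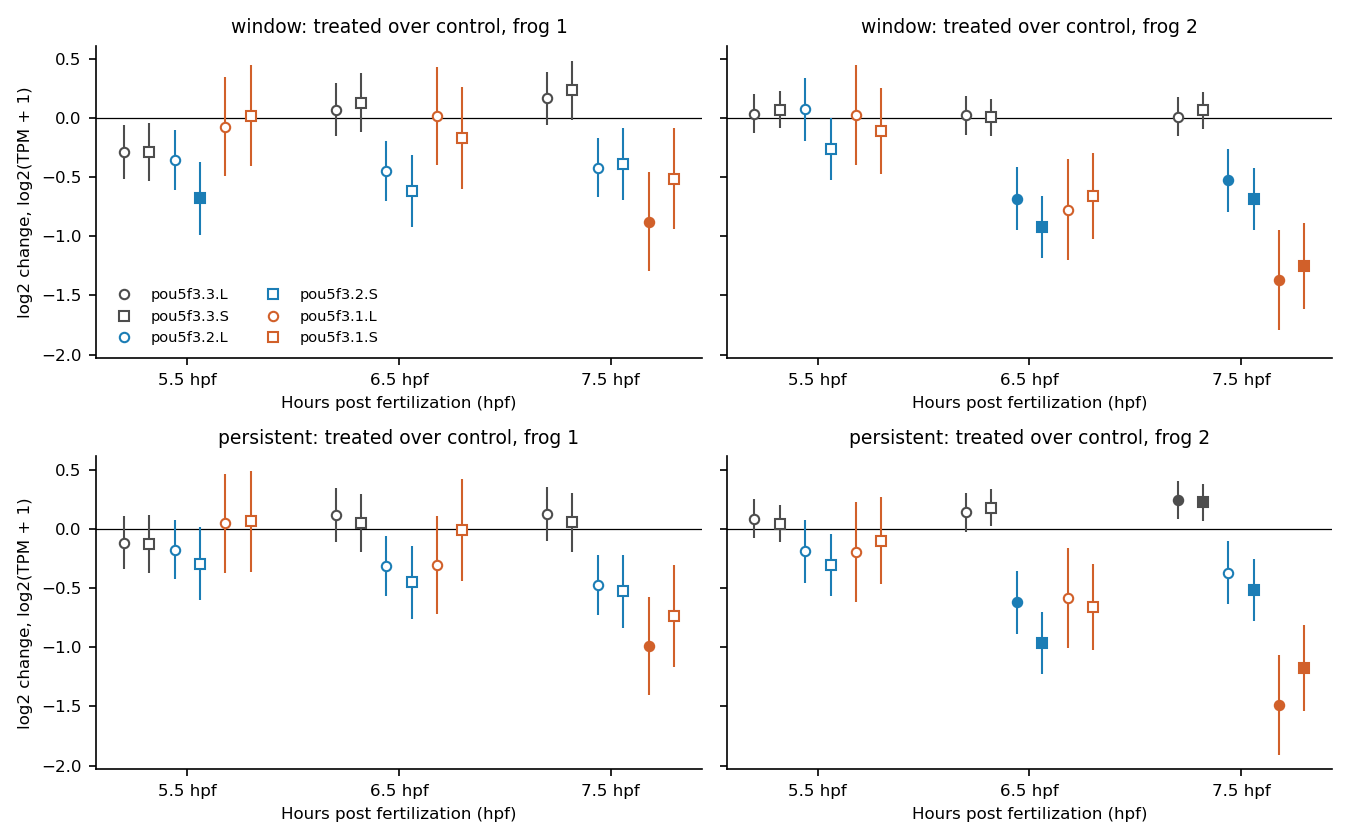
Log2 change of each member, treated over control, with 95% intervals, by stage for the window scheme (top) and the persistent scheme (bottom) in frog 1 (left) and frog 2 (right); circles are L copies, squares S copies, and filled symbols were called over all genes. From 6.5 hpf on *pou5f3.3* lies at or slightly above 0 (called only in the persistent scheme of frog 2 at 7.5 hpf, and not after rescaling), *pou5f3.2* lies below 0 at 6.5 and 7.5 hpf, and *pou5f3.1* lies lowest at 7.5 hpf.

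No member was called different between the window and the persistent effect at any stage (0 of 6 in each frog, by limma). Over all genes the calls were 0% and 0% at 5.5 hpf, 0% and 0% at 6.5 hpf, and 0.00957% and 0% at 7.5 hpf (frogs 1 and 2). Unadjusted p-values under 0.05 were found for 1 of the 36 member tests. Over all genes of frog 1 they were found for 689, 675 and 458 of 20891 at 5.5, 6.5 and 7.5 hpf. In frog 2 the counts were 428, 468 and 1945 of 20277. The intervals were wide for the zygotic genes. At 7.5 hpf the difference for *pou5f3.1.L* had a 95% interval of -0.47 to 0.70 in frog 1 and of -0.49 to 0.71 in frog 2. For *pou5f3.2.L* it was -0.30 to 0.41 in frog 1 and -0.54 to 0.22 in frog 2.

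The response of the maternal gene was set directly against that of each zygotic gene. For every library log2(*pou5f3.2* + 1), with L and S TPM summed, was taken from log2(*pou5f3.3* + 1), and the treated and control means of this difference were compared. An exact permutation test within frogs was used (two-sided, 400 arrangements, smallest possible p 0.005, adjusted over 12 tests). Since both genes are read from the same library, a shift of the whole library largely cancels. In the window scheme *pou5f3.3* stood higher against *pou5f3.2* in treated than in control embryos by 0.70 (frog 1 0.61, frog 2 0.79) at 6.5 hpf and by 0.61 (frog 1 0.61, frog 2 0.62) at 7.5 hpf. In the persistent scheme the values were 0.68 (frog 1 0.45, frog 2 0.91) and 0.62 (frog 1 0.59, frog 2 0.66). All 4 had the smallest possible p (0.005, adjusted p = 0.00857 by exact permutation), and all 6 treated pools were beyond the control pools of their frog. The persistent scheme gave the same p at 5.5 hpf with a small difference of 0.19 (frog 1 0.09, frog 2 0.30). The window scheme at 5.5 hpf gave 0.10 (exact permutation p = 0.29).

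Against *pou5f3.1* the difference at 7.5 hpf was 1.26 (frog 1 1.04, frog 2 1.48) in the window scheme and 1.44 (frog 1 1.07, frog 2 1.80) in the persistent scheme (exact permutation p = 0.005, adjusted p = 0.00857, 6 of 6 treated pools beyond the controls). At 6.5 hpf it was 0.59 (frog 1 0.18, frog 2 1.00) and 0.66 (frog 1 0.30, frog 2 1.03), with adjusted p = 0.0467 and 0.015 by exact permutation. There the treated and control pools overlapped in frog 1 and not in frog 2, and leaving out 1 pool number at a time raised the adjusted p to 0.05 or more in 9 of the 12 repeats. At 5.5 hpf, where *pou5f3.1* was near 0, the differences were -0.07 and 0.06 (exact permutation p = 0.545 and 0.65).

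As a share of the family, the maternal gene weighed more in treated embryos. At 7.5 hpf *pou5f3.3* held 50.7% ± 4.37 of the family's TPM in treated +IAA and 39.9% ± 1.25 in control +IAA embryos of frog 1 (SD, n = 3), and 56.5% ± 1.57 and 45.1% ± 3.41 in frog 2. Without auxin it held 52.1% ± 1.34 in treated and 41.5% ± 3.24 in control embryos of frog 1, and 60.2% ± 0.833 and 48.1% ± 8.82 in frog 2. *pou5f3.1* held 1.38% ± 0.187 in treated +IAA and 3.32% ± 0.489 in control +IAA embryos of frog 2. The summed TPM of all 6 copies in treated embryos was 90.2% and 81.5% of the control level in the window scheme and 84.8% and 93.1% in the persistent scheme (frogs 1 and 2). For the summed *pou5f3.1* copies these percentages were 56.8% and 33.7%, then 47.8% and 26.7%, and for *pou5f3.2* 75.2% and 66.5%, then 70.7% and 73.6%.

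**Figure D5:**
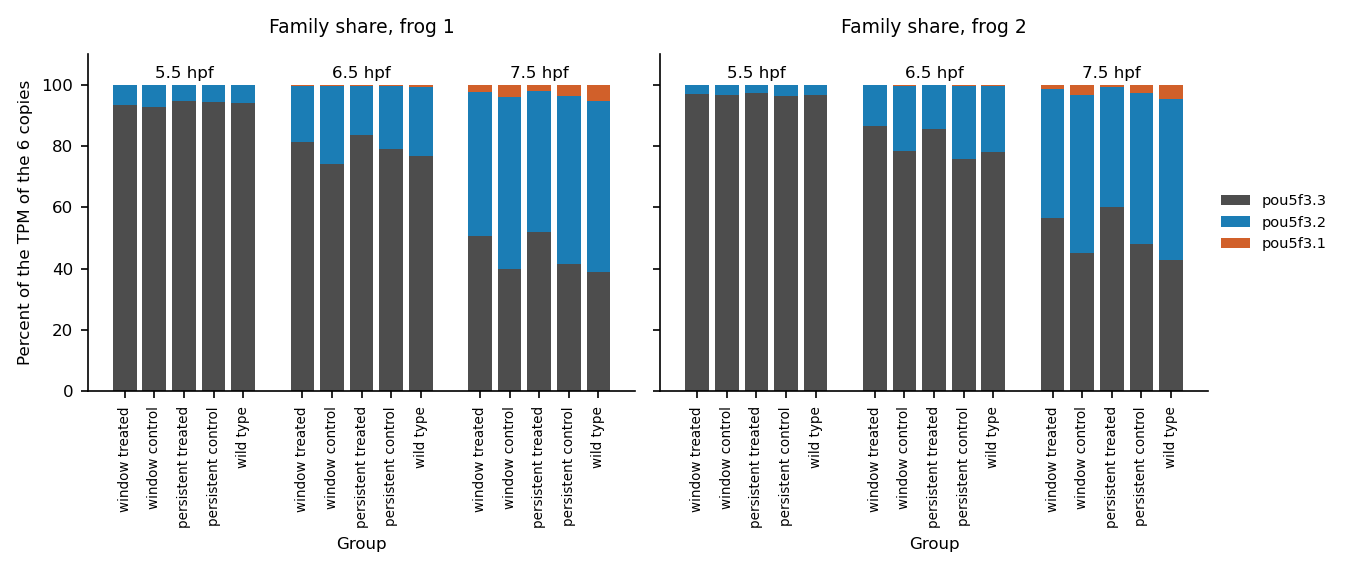
Mean share of *pou5f3.3*, *pou5f3.2* and *pou5f3.1* (L + S) in the summed TPM of the 6 copies, in percent, for each group of 3 pools at 5.5, 6.5 and 7.5 hpf, frog 1 (left) and frog 2 (right). At 7.5 hpf the *pou5f3.3* part is 50.7% to 60.2% in the 4 treated bars, against 39.9% to 48.1% in the control bars.

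The balance of L and S copies was not called changed by depletion for any of the 3 genes at 6.5 or 7.5 hpf (0 of 3 pairs in each comparison by limma). An unadjusted p under 0.05 was found for 1 of the 3 pairs at 6.5 hpf in frog 2, in each scheme, and for 0 elsewhere. Of all pairs, the window scheme changed 0.0172% and 0.472% at 6.5 hpf and 0.585% and 3.29% at 7.5 hpf (frogs 1 and 2). The persistent scheme changed 0% and 0.892% at 6.5 hpf and 0.224% and 3.01% at 7.5 hpf. For *pou5f3.2* at 7.5 hpf the interval of the log2 ratio change was -0.28 to 0.21 and -0.07 to 0.39 in the window scheme and -0.19 to 0.30 and -0.08 to 0.38 in the persistent scheme. For *pou5f3.1* it was wider, from -0.81 to 0.08 in frog 1 and -0.44 to 0.20 in frog 2 in the window scheme. The nearest to a call was *pou5f3.2* under persistent depletion at 6.5 hpf in frog 2, where L held 68.8% ± 0.796 in treated and 63.1% ± 3.25 in control embryos (ratio change 0.34 ± 0.11, adjusted p = 0.231).

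Control injection without auxin was set against wild type, and *pou5f3.1.S* was called lower at 7.5 hpf in both frogs. At 7.5 hpf this copy had 3.94, 4.27 and 8.57 TPM in control -IAA and 12.6, 12.0 and 9.04 TPM in wild type pools of frog 1 (-0.94 ± 0.21, adjusted p = 0.00284). In frog 2 it had 1.67, 2.59 and 5.54 TPM in control and 7.66, 6.38 and 7.61 TPM in wild type pools (-1.05 ± 0.18, adjusted p = 0.000184). The groups did not overlap in either frog, although in each 1 control pool came close to the wild type pools. In frog 2 *pou5f3.1.L* (-0.92 ± 0.21) and *pou5f3.2.S* (-0.46 ± 0.13) were called lower as well, the first with 1 control pool within the wild type range, and *pou5f3.2.L* was not (-0.25 ± 0.13, adjusted p = 0.675). At 7.5 hpf 1 of 6 members was thus called lower in frog 1 (1.47% of all genes) and 3 of 6 in frog 2 (1.02%). At 6.5 hpf the counts were 3 of 6 in frog 1 (16.8% of all genes, with a median change of -0.25) and 0 of 6 in frog 2 (0.0542%, none with an unadjusted limma p under 0.05). After median-ratio rescaling, for which the share of all genes called is not given here, none of the 6 was called at 6.5 hpf in either frog. The counts at 7.5 hpf were again 1 and 3. These calls changed when pools were left out, and the shares of all genes called in those smaller fits are not given here. At 7.5 hpf 0 of 6 were called in frog 1 without its pools numbered 1 or 2, and 0 of 6 in frog 2 without its pools numbered 1 or 2. At 6.5 hpf in frog 1 4, 1 and 0 of 6 were called without the pools numbered 1, 2 and 3. The control -IAA pools also enter the persistent comparison, and the 2 comparisons share them.

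The mean L share of *pou5f3.2* was higher in all 4 injected groups than in wild type embryos at each stage and in each frog. At 7.5 hpf it was 65.7% ± 0.631 in control -IAA and 60.3% ± 1.35 in wild type embryos of frog 1, and 64.9% ± 1.26 and 61.6% ± 0.999 in frog 2 (SD, n = 3). This pattern was noticed in the values and has no test here. Auxin alone, control +IAA against control -IAA, gave calls in frog 1 only. At 5.5 hpf 4 of 6 members were called higher there (38.7% of all genes) and at 6.5 hpf 3 of 6 (21.9%). *pou5f3.2.L* had 20.5, 22.2 and 26.1 TPM in control +IAA and 13.5, 14.1 and 15.6 TPM in control -IAA pools at 5.5 hpf (0.63 ± 0.12), against a median of 0.29 over all genes. Ribosomal RNA took 11.4% to 11.9% and 20.6% to 24.9% of TPM in these 2 groups, and after median-ratio rescaling none of the 6 was called at either stage. Without the pools numbered 1, 2 and 3 of frog 1, 0, 2 and 4 of 6 were called at 5.5 hpf, and 2, 0 and 0 of 6 at 6.5 hpf. The shares of all genes called in these smaller fits are not given here. In frog 2 no member was called at 5.5 hpf (0% of all genes) or 6.5 hpf (0%). There 1 and 2 members had an unadjusted limma p under 0.05, beside 1188 and 1741 of 20277 genes in either direction. At 7.5 hpf no member was called higher in either frog (0 of 6, with 0.00957% and 0.00493% of all genes). Unadjusted limma p-values under 0.05 were found for 0 and 6 members, beside 510 of 20891 and 3158 of 20277 genes in either direction. The median over all genes was -0.01 and 0.11.

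The genes with the most similar pattern were found by Pearson's r of the 15 group means of log2(TPM + 1) within each frog, ranked by the lower r of the frogs over 14997 genes. The groups share stages, table shifts and libraries, so these values are descriptive. Closest to *pou5f3.2.L* were *sox17a.L* (r = 0.996 and 0.997 in frogs 1 and 2), a copy of the endoderm regulator Sox17, *fgf8.S*, which codes for a fibroblast growth factor, and *bix1.2.S*, a homeobox gene of mesendoderm. Closest to *pou5f3.2.S* were *LOC121399530* (r = 0.997 and 0.997), *bix1.1.S* and *LOC121393042*. For *pou5f3.1.L* they were *nradd.L* (r = 0.999 and 0.996), *kirrel2.S* and *dusp6.S*, a phosphatase gene of the FGF and ERK pathway. Among the closest to *pou5f3.1.S* were *LOC121399962* (r = 0.981 and 0.988) and *LOC108704135*. *sox17a.L* also rose in wild type embryos, with means of 0.736, 11.9 and 80.9 TPM at the 3 stages of frog 1. *nradd.L* was at 0.188 and 13.6 TPM at 5.5 and 7.5 hpf. *pou5f3.2.L* had means of 14.0, 80.0 and 317 TPM at the 3 stages of frog 1, and Pearson's r takes no account of such differences in level.

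For *pou5f3.3.L* the most similar genes were *cdc25a.L* (r = 0.992 and 0.995), a phosphatase gene that drives the early cell cycles, *ado.L* and *pygo2.L*, a Wnt pathway cofactor. For *pou5f3.3.S* they were *pygo2.L* (r = 0.991 and 0.993), *klhl15.L* and *irf2bpl.L*. These r use unscaled TPM. Over the 45 libraries of a frog the SD of *pou5f3.3.L* was 21.2% and 20.5% of its mean unscaled. After median-ratio rescaling it was 5.32% and 4.77% (frogs 1 and 2). Much of the pattern matched here is thus shared with the typical gene, and likeness after rescaling was not computed. Within the family the copies of one gene were alike, with r = 0.991 and 0.988 for *pou5f3.2* and 0.990 and 0.997 for *pou5f3.3*. Between *pou5f3.3.L* and *pou5f3.2.L* r was 0.610 and -0.943, of opposite sign in the frogs, as were the shifts of their tables.

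The 12 genes beside the clusters, 3 on each side of each cluster, were taken from the annotation after the members' values were known. Of these, 8 passed the filter in frog 1 and 7 in frog 2. From 5.5 to 7.5 hpf in wild type embryos 5 of 8 were called higher in frog 1 and 1 lower (all genes 56.2% and 4.28%), and 1 of 7 were called higher in frog 2 and 5 lower (all genes 8.37% and 79.7%). The only neighbour called higher in both was *LOC108699886*, the outermost on 8S, with 15.4 and 43.7 TPM at 5.5 and 7.5 hpf in frog 1 (1.45 ± 0.14) and 36.7 and 44.2 TPM in frog 2 (0.26 ± 0.10). *npdc1.1.L*, next to *pou5f3.1.L*, had 7.59 and 11.5 TPM in frog 1 and 11.7 and 7.04 TPM in frog 2, with changes of 0.54 ± 0.13 and -0.65 ± 0.10. *fut7.L*, 980 bases from *pou5f3.3.L*, was at 0.0662 and 0 TPM at 7.5 hpf. The differences between neighbours and members were not tested. In the window comparison at 7.5 hpf limma called 0 neighbours in frog 1 and 1 in frog 2 (unadjusted p under 0.05 for 0 and 2), which was *LOC108699886* at -0.44 ± 0.10 (adjusted p = 0.00538). In the persistent comparison it called 0 in each frog, and an unadjusted p under 0.05 was found for 0 in frog 1 and 1 in frog 2. Of all genes in frogs 1 and 2, 1301 and 2646 had an unadjusted p under 0.05 in the window comparison at 7.5 hpf. In the persistent comparison at 7.5 hpf these counts were 1985 and 7134.

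Other POU genes were few. Of the 17 copies listed in frog 1 and 16 in frog 2, only the 4 of *pou2f1* and *pou3f2* passed the filter in each. The ubiquitous Oct1 gene *pou2f1* was the highest, at 55.1 TPM (*pou2f1.S*) and 46.0 TPM (*pou2f1.L*) in frog 1 at 7.5 hpf (wild type) and at 36.5 and 30.0 TPM in frog 2. *pou3f2.S*, a gene of neural development, was at 3.05 and 1.93 TPM. None of the 4 was called in either scheme at 7.5 hpf by limma (0 of 4), with an unadjusted p under 0.05 for 1 in each frog in the window scheme and for 0 in the persistent scheme. Of maternal factors of genome activation (Sox, Fox, Smad and others), 26 were tested in frog 1 and 25 in frog 2. In the window scheme at 7.5 hpf 0 and 3 of them were called lower and none higher (0 in each frog, unadjusted p under 0.05 in either direction for 1 and 3), with medians of 0.09 and -0.05 beside 0.06 and 0.03 for all genes. Of all genes 0.579% and 1.87% were called lower there. In the persistent scheme 0 and 1 were called lower and 0 and 3 higher, with medians of 0.10 and 0.18 beside 0.08 and 0.16. Of all genes 0.641% and 2.19% were called lower there and 0.0527% and 13% higher, so the 3 of 25 in frog 2 lie near the background.

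Early zygotic regulators include genes that Pou5f3 and Sox factors are known to help activate. From 5.5 to 7.5 hpf in wild type embryos 73 of 77 in frog 1 and 64 of 74 in frog 2 were called higher. In the same comparison 1 and 9 were called lower. Of all genes 56.2% and 8.37% were called higher there and 4.28% and 79.7% lower. Of 77 tested in frog 1 and 74 in frog 2, 15 and 20 were called lower in the window scheme at 7.5 hpf and 0 and 1 higher, with medians of -0.35 and -0.30 beside the same 0.06 and 0.03. The shares of all genes were 0.579% and 1.87% lower and 0.0431% and 1.28% higher. In the persistent scheme 9 and 31 were called lower and 0 and 7 higher, with medians of -0.35 and -0.29 beside 0.08 and 0.16, and the shares of all genes were those given above (0.641% and 2.19% lower, 0.0527% and 13% higher). In the window scheme 8 genes of the list were called in both frogs in the same direction. Those with strongly negative mean changes included *lin28a.S* (-1.16 ± 0.23 and -2.01 ± 0.29), which codes for an RNA-binding protein of pluripotent cells, the neural gene *foxd4l1.1.L* (-1.07 ± 0.26 and -1.64 ± 0.19), and the mesoderm gene *tbxt.S* (-1.15 ± 0.25 and -1.19 ± 0.22). In the persistent scheme 5 genes were called in both frogs in the same direction. They included *lin28a.S* (-1.60 ± 0.23 and -1.73 ± 0.29) and the endoderm gene *gata6.S* (-1.05 ± 0.16 and -0.54 ± 0.14). Germ plasm genes, a check on maternal RNA of the germ line, held 12 members in each frog. None was called in the window scheme at 7.5 hpf (0 in each frog by limma, with unadjusted p-values under 0.05 for 0 and 4). In the persistent scheme 0 were called lower, and 0 and 6 higher, with medians of 0.23 and 0.35 beside 0.08 and 0.16. Of all genes 0.0527% and 13% were called higher there.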

How the data were processed

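Total RNA of pools of 3 sibling embryos was depleted of ribosomal RNA and sequenced (15 groups, 3 pools from each of 2 frogs, 90 libraries). The authors quantified reads with kallisto 0.48 against the Xenbase v10.1 transcripts, summed isoforms with tximport (R 4.3.2) and deposited gene-level TPM values, one table per frog. TPM hold no counts, so depth is unknown and the authors' count model (DESeq2 1.42.1) could not be used. Each frog was tested alone with limma 3.58.1 (R 4.3.3) on log2(TPM + 1) of genes that reached 1 TPM in 3 or more libraries, one mean per group over all 45 libraries, empirical Bayes with mean-variance trend, two-sided, with Benjamini-Hochberg adjustment over all genes at 0.05. Ratios of L to S copies were tested in the same way over all homeolog pairs whose summed L and S level reached 1 TPM in 3 or more libraries. Maternal and zygotic responses were compared by exact permutation within frogs. The fit was tested on simulated data. Gene positions and names came from RefSeq (assembly Xenopus_laevis_v10.1, 36783 and 35801 genes matched by symbol). No sequence was used here, and the promoter and protein comparison that had been planned was not run.

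The 6 members, the gene lists (other POU genes, maternal factors of genome activation, early zygotic regulators, germ plasm genes), the rule for named genes and the tests were chosen with earlier results of these data known. Named genes were all 6 members and the 3 genes closest to each by the lower Pearson r of the frogs. Per list they were up to 4 genes called in the same direction in both frogs, with the largest mean change in absolute size. Some genes that meet this rule are not reported here. Alternatives were another pseudocount (0.1), no filter or a mean of at least 5 TPM, only the libraries of a contrast, median-ratio rescaling, quantile normalization, removal of structural RNA, globin and H3.3 genes, no trend, the pool number as a block, and leaving out each pool number in turn.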

Additional observations from a re-analysis of the deposited data

Results flagged for a closer look

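The maternal copies moved in opposite directions in the frogs over the wild type time course, with no overlap between the pools of the stages compared. From 5.5 to 6.5 hpf *pou5f3.3.L* changed by 0.67 in frog 1 and -0.30 in frog 2, and *pou5f3.3.S* by 0.72 and -0.27. From 5.5 to 7.5 hpf the changes were 0.42 and -0.72 for *pou5f3.3.L* and 0.36 and -0.83 for *pou5f3.3.S*. The difference between the frogs was not tested. Ribosomal RNA took 20.6% to 37.4% of TPM in the wild type pools of frog 1 at 5.5 hpf and 5.78% to 7.83% at 7.5 hpf. In frog 2 it took 2.49% to 4.07% and 4.06% to 8.47%. The medians of all genes were 0.61 and -0.34 for the first interval and 0.39 and -0.69 for the second.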

How the results depend on the processing

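The count of the 6 members called moved with the processing, and the cause was not tested. In some alternatives fewer libraries or genes entered. The shares of all genes called under each alternative are not given here for either frog. Counts called lower in frog 1 were as follows. The window call at 5.5 hpf (1) became 0 with no filter, in a fit of the contrast's own libraries, with median-ratio rescaling, with quantile normalization, and with structural RNA, globin and H3.3 genes removed, and 0 to 0 leaving out pools. At 6.5 hpf the window count of 0 became 2 with median-ratio rescaling and 2 with quantile normalization. At 7.5 hpf both the window and the persistent count of 1 became 0 with a pseudocount of 0.1, 0 at a mean of at least 5 TPM and 0 with the contrast's own libraries. Median-ratio rescaling gave 2 (window) and 4 (persistent), quantile normalization 4 and the removal of structural RNA 2 (both persistent), and leaving out pools 0 to 1 in each scheme. In frog 2 the window count of 2 at 6.5 hpf became 4 with a pseudocount of 0.1, 1 in the fit of the contrast's own libraries and 4 with structural RNA removed, and 1 to 1 leaving out pools. The window count of 4 at 7.5 hpf became 2 at a mean of at least 5 TPM and 1 in the smaller fit, and 0 to 4 leaving out pools. The persistent counts of 2 at 6.5 hpf and 3 at 7.5 hpf became 1 and 0 in that fit, and 1 to 4 and 2 to 3 leaving out pools. Members called higher over the wild type time course numbered 3 in place of 6 at 6.5 hpf in frog 1 with median-ratio rescaling, and 2 in place of 4 at 6.5 and at 7.5 hpf in frog 2 at a mean of at least 5 TPM, which drops the low *pou5f3.1* copies.

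With median-ratio rescaling *pou5f3.3.L* changed sign in frog 1 (-0.0417 from 5.5 to 6.5 hpf, -0.0185 from 5.5 to 7.5 hpf) and in frog 2 (0.0976 and 0.0855), and *pou5f3.3.S* in frog 1 (-0.0689 from 5.5 to 7.5 hpf) and in frog 2 (0.127 from 5.5 to 6.5 hpf, adjusted p = 0.0473 by limma). With quantile normalization the changes from 5.5 to 7.5 hpf in frog 1 were -0.10 for *pou5f3.3.L* and -0.10 for *pou5f3.3.S*. For auxin in controls at 5.5 hpf in frog 1 rescaling gave -0.0285 and -0.0193.

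Leaving out pools, the lead of *pou5f3.3* over *pou5f3.1* in treated embryos at 6.5 hpf was 0.48 to 0.70 (window) and 0.58 to 0.82 (persistent), and at 5.5 hpf -0.0546 to 0.124 (persistent). The leads over either gene at 7.5 hpf and over *pou5f3.2* at 6.5 hpf were 0.50 to 1.58 with the same calls, and a pseudocount of 0.1 or rescaling changed no call of these differences.

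Pool numbers did not pair the libraries (median correlation of same-numbered deviations -0.03 in frog 1 and -0.02 in frog 2). In the fit with a replicate block by pool number the count called lower was 3 in place of 2 for the window at 6.5 hpf in frog 2, and 2 in place of 3 for injection at 7.5 hpf in frog 2. TPM keep no depth, so the precision of low values such as *pou5f3.1* before 7.5 hpf cannot be given.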
